A study of Mus musculus with 8 samples.

Results

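YTHDF3 peaks in first exons are the peaks of YTHDF3-bound RNA whose center fell in the coding part of the first exon of a gene with more than 1 exon. They were taken from the annotation that accompanied the peak lists, as every peak labelled exon 1 of a transcript with more exons than 1, so no measured value entered the choice. There were 2237 such peaks among 87940 in all. Normal replicates 1 and 2 held 524 of 17546 and 563 of 22189 peaks, and starved replicates 1 and 2 held 490 of 23294 and 660 of 24911. Of the 2237, 2219 were enriched at least 2-fold in the IP with p below 0.0001 and entered the results, which left out 18.

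The RNA came from mouse embryonic fibroblasts (MEFs), primary connective tissue cells of wild-type C57BL/6 embryos at embryonic day 13.5, used at passages 5 to 6. Cells stood in normal medium or were deprived of nutrients for 2 h, with 2 replicates of each. RNA bound to YTHDF3 was pulled down with an antibody (IP) and sequenced beside input RNA, and the molecule is labelled as polyA RNA. Nothing in the labels says that replicates came from separate embryos, so p-values measure the spread between these samples, which may be technical. The lists do not say which input library they used, so the input with the same condition and number was assumed.

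YTHDF3 is one of the cytoplasmic proteins of the YTH family, which bind N6-methyladenosine (m6A), a methyl mark on adenosines of messenger RNA. The mark is written mostly in a short context that contains GGAC, and mapping work places most of it near stop codons, in 3' UTRs and in long exons. First exons carry the start codon and are usually short and rich in GC.

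Sequences of coding first exons at the peak centers are shown for 8 regions, to let the GC content and the motif be seen beside the values that follow. Cyhr1, Soga1 and Aoc3 stood among the highest folds, Flna and Ccnd2 among the densest in reads, and Irs2, Foxo1 and Alkbh5 belong to the insulin and m6A lists. Each stretch is coding sequence of up to 150 bases around the center of the peak with the most IP reads, read from the RefSeq release of GRCm38.p6 (mm10) on the transcribed strand, with GGAC in capitals. The positions in mm10 were chr15:76656551-76656700 (minus strand), chr2:157078781-157078909 (minus strand), chr11:101331261-101331410 (plus strand), chrX:74246206-74246355 (minus strand), chr6:127150686-127150773 (minus strand), chr8:11006641-11006790 (minus strand), chr3:52268891-52269040 (plus strand) and chr11:60538423-60538510 (plus strand).
Cyhr1: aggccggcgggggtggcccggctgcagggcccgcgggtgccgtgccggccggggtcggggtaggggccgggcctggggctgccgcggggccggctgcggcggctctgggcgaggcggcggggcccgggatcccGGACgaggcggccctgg
Soga1: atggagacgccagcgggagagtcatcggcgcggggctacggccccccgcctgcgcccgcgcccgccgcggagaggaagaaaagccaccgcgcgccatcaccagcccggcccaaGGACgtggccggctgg
Aoc3: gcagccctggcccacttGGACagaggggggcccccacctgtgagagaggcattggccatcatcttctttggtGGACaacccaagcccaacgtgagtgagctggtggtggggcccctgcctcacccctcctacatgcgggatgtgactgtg
Flna: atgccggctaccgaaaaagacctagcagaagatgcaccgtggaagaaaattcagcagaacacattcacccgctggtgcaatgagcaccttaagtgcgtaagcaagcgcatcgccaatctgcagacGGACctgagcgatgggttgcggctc
Ccnd2: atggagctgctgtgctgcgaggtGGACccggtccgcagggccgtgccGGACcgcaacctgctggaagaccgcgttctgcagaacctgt
Irs2: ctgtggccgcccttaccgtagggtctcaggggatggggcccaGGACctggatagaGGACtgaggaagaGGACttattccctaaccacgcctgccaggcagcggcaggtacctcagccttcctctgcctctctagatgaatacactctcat
Foxo1: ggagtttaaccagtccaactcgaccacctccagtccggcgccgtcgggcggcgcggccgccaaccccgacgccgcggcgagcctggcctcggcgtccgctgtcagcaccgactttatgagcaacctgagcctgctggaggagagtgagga
Alkbh5: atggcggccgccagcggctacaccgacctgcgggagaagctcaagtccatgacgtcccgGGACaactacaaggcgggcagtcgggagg

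The stretch of Cyhr1 was 86.7% GC and that of Flna 54.0%. Irs2 held 3 copies of GGAC, Aoc3 and Ccnd2 held 2 each, and the stretch of Foxo1 held none. A match is a description of the letters, not a methylated site.

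Over all 2212 kept peaks whose transcript was found in RefSeq, 73.4% of 200 bp windows around the center held GGAC on the transcribed strand. The share was between 72.8% and 74.5% in the 4 lists (SD 0.797 percentage points, n = 4 lists). It was 60.5% in peaks of internal coding exons and 61.4% over all kept exonic peaks. The windows differed in base composition: the median GC content was 68.0% in first exons, 53.0% in internal exons and 67.5% in the 5' UTR, and the ratio of observed to chance CpG was 0.831, 0.362 and 0.793. The 11 other orders of the letters of GGAC were each in 67.1% of first-exon windows on average and in 48.5% of internal-exon windows. Their gap was wider than that of GGAC itself, but some of these orders contain CpG, which GGAC does not. They are therefore not a matched control. In windows under 60% GC, GGAC was in 69.0% of 542 first-exon and 59.2% of 29995 internal-exon windows. The other orders were in 53.1% and 46.5% there, so the gap of GGAC was the wider one. From 60% to under 70% GC, GGAC was in 76.3% of 739 first-exon and 68.4% of 4606 internal-exon windows, and the other orders in 69.8% and 60.9%. At 70% GC or more GGAC was in 73.6% of 931 and 72.2% of 158 windows, and the other orders in 73.1% and 69.5%. In both of these strata the gap of the other orders was the wider one. The longer GGACT was in 20.6% of first-exon and 20.8% of internal-exon windows. As a reference, windows at the middle of coding first exons of at least 200 bp held GGAC in 74.2% of 523 exons named by the peaks and in 68.4% of 2398 other RefSeq first exons, with a median GC of 68.5% and 64.5%.

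The label was checked against the genome. The center of 97.0% of the 2212 peaks lay in the coding part of exon 1 of the transcript named by the list. These centers stood a median of 352 bp from the transcription start (quartiles 206 and 705) and 147 bp from the start codon (quartiles 58 and 376). The peaks were wider than the feature they were assigned to: 74.0% covered the start codon, 52.4% the transcription start and 71.3% the splice donor at the end of the exon. Many of them therefore held 5' UTR and intronic sequence too, and the annotation class depends on which feature the center hit.

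**Figure D1:**
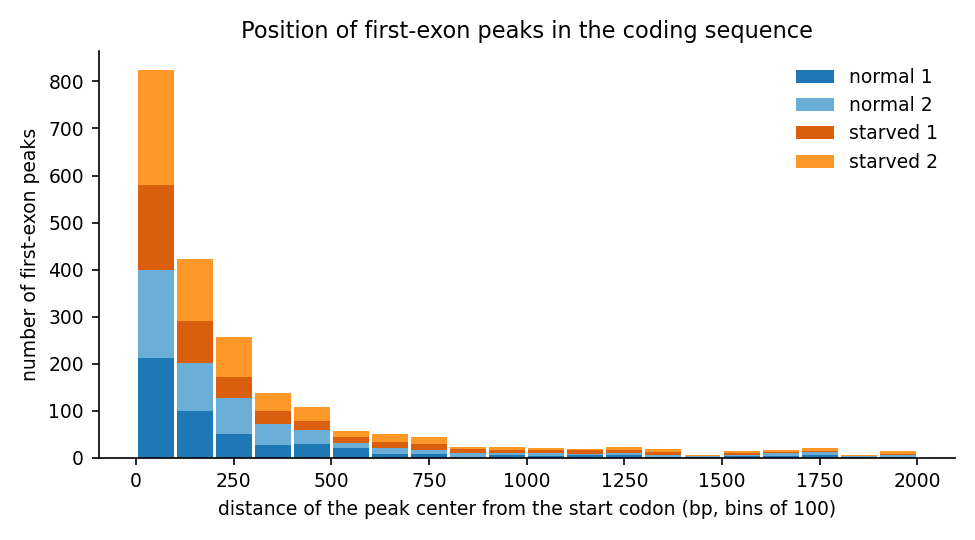
Number of first-exon peaks by the distance of the peak center from the start codon, in bins of 100 bp, stacked by library. The first bin held 824 peaks, the second 422, and 41 peaks at 2000 bp or more are not drawn.

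The exons with a peak were long. The coding part of exon 1 had a median length of 290 bases in the 945 transcripts named by the peaks and of 91 bases in 18462 RefSeq transcripts with a start codon in exon 1. Of the first, 37.4% had at least 400 coding bases there, against 7.65% of all. The label needs a peak center inside that coding part, so short ones had less room to hold a center. The reference also takes RefSeq transcripts whether or not they were bound. The lengths therefore describe the labelled exons and do not measure a preference for long ones. The whole exon at the center was 630 bp long at the median, against 165 bp for peaks in internal exons.

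Enrichment over input was a little higher in first exons than in internal exons in each of the 4 libraries. The median log2 IP/input fold of first-exon peaks was 1.59 and 1.70 in normal replicates 1 and 2, and 1.56 and 1.74 in starved replicates 1 and 2. Internal exons had 1.48, 1.49, 1.47 and 1.53 in the same order. The difference was 0.15 on average over the 4 lists (exact sign-flip permutation test, two-sided, p = 0.13, the smallest p that 4 lists can give). Against 5' UTR peaks the difference was 0.04 on average, with 3 of 4 lists higher (exact permutation p = 0.25), and against all other peaks it was 0.03, with 2 of 4 lists higher (exact permutation p = 0.5). In first and internal exons the replicate 2 libraries had the higher folds in both conditions. Over all peaks normal replicate 1 was above normal replicate 2 (1.64 against 1.61).

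**Figure D2:**
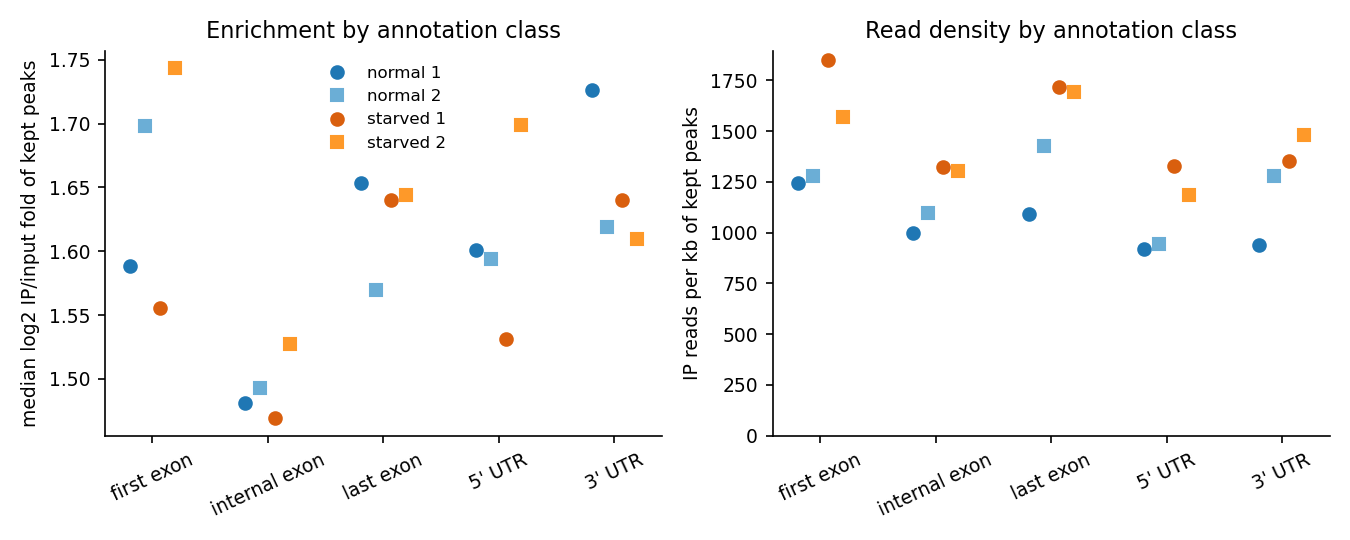
Median log2 IP/input fold (left) and IP reads per kb (right) of kept peaks by annotation class, 1 point per library. First-exon peaks sit above internal-exon peaks in every library on both scales, with folds of 1.56 to 1.74 against 1.47 to 1.53.

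The difference from internal exons varied with GC content. In windows under 60% GC the first-exon peaks were higher by 0.30, 0.33, 0.30 and 0.33 on the log2 scale. From 60% to under 70% the differences were 0.08, 0.03, 0.13 and 0.12. At 70% or more they were 0.01, 0.08, -0.23 and -0.02, with only 29 to 49 internal-exon peaks per list. Under 60% GC the number of first-exon peaks was 113, 139, 150 and 140. The difference varied with exon length as well. For exons of at most 400 bp it was 0.05, -0.03, 0.10 and 0.13 in the 4 lists, and for over 400 up to 800 bp it was -0.04, 0.16, -0.03 and 0.06. The means over lists were 0.06 and 0.04 in these strata, below the 0.15 over all lengths, and the difference turned in some lists. Where the exon at the center was over 800 bp, medians were 1.69, 1.86, 1.65 and 1.87 in first exons. In internal exons of that length they were 1.63, 1.64, 1.62 and 1.68. The differences there were 0.06, 0.21, 0.03 and 0.19, with a mean of 0.12, so first exons were higher in each list. The part of GC content and exon length in the result was not tested beyond these strata.

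Within the same gene, first exons were set against internal and last coding exons together. Last exons had median log2 folds of 1.65, 1.57, 1.64 and 1.64, above internal exons in each list. The differences are therefore not like for like with those from internal exons alone. Genes with peaks both in the first exon and in a later coding exon numbered 310, 355, 292 and 414 in the 4 lists. The first exon had the higher fold in 53.5%, 61.1%, 44.9% and 69.1% of them, with median differences of 0.04, 0.09, -0.04 and 0.17. IP reads per base were higher in the first exon by a median of 0.36, 0.37, 0.30 and 0.33 on the log2 scale, and input reads by 0.39, 0.28, 0.38 and 0.20.

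First-exon peaks made up 3.0% and 2.55% of the peaks of normal replicates 1 and 2, and 2.10% and 2.64% of those of starved replicates 1 and 2. The means differed by -0.40 percentage points (exact permutation test, two-sided, p = 0.667, where 2 against 2 samples cannot go below 0.333). The share was lower under starvation in replicate 1 and higher in replicate 2. The same peaks held 5.08%, 3.90%, 4.05% and 4.15% of the IP reads in kept peaks. They were 490, 555, 480 and 570 bp long at the median and, over 360.2, 438, 344 and 509 kb of called length, held 1244, 1281, 1850 and 1571 IP reads per kb. Reads per kb are not scaled for library depth, which is unknown because the lists give reads inside called peaks alone.

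Peaks that overlapped between lists were joined, which gave 39979 regions, of which 1027 held a first-exon peak, in 963 genes. Of the 1027, 350 (34.1%) were called in all 4 lists, against 16.3% of all regions, while 230 were called in 1 list, 214 in 2 and 233 in 3. The label in any list was enough, so a region called in more lists had more chances to count as a first-exon region. The shares of 34.1% and 16.3% are therefore not like for like. In 169 of the 350 the first-exon label stood in each list. In the rest the center moved into a neighbouring class in at least 1 list. Starved lists alone called 40 regions (3.89% of 1027, against 4.7% of all regions) and normal lists alone called 13 (1.27%, against 1.3%). Both lists of replicate 1 alone called 38 regions (3.70%, against 2.76% of all regions) and both lists of replicate 2 alone called 76 (7.40%, against 7.40% of all).

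The fold of a region in a list is that of its peak with the highest fold there, while its reads are summed over all its peaks in that list, so both need not match. Peaks of any annotation class within a merged region counted, so a value need not come from a peak with the first-exon label. Among regions called in all 4 lists with at least 20 IP reads and more than 3 input reads in each, Cyhr1, a zinc-binding protein gene, had the highest mean log2 fold. Its folds were 3.15 and 3.22 in normal and 3.51 and 3.05 in starved MEFs (mean 3.23 ± 0.20, SD, n = 4 lists). IP reads were 482, 447, 769 and 714, over 89, 106, 137 and 174 input reads. The folds are those of its highest peak. With summed reads its ratio was lower in starved MEFs, by -0.77 ± 0.23 (edgeR log2 change ± SE, adjusted p = 0.999). The next were Pcdhga2 (2.81 ± 0.72), the kinase gene Clk3 (2.74 ± 0.67), the actin nucleator gene Fmn2 (2.72 ± 0.75), Pcdhga4 (2.71 ± 0.24), the amine oxidase gene Aoc3 (2.65 ± 0.38), Heca (2.64 ± 0.57) and Soga1 (2.60 ± 0.69), each as mean log2 fold ± SD over the 4 lists. Their SDs overlap, so the order of these 7 is not fixed by the data. In Pcdhga2 and Fmn2 normal replicate 1 stood apart, at 3.89 and 3.84 beside 2.27 to 2.5 in the other libraries. The median over the 350 first-exon regions was 1.73, beside 1.63 over the 6181 other regions called in all 4 lists.

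The densest regions were in Flna, which encodes the actin crosslinker filamin A. Per kb, the IP held 18942 and 31463 reads in normal replicates 1 and 2, and 44966 and 44058 in the starved ones. Its log2 folds were 2.43, 1.42, 1.19 and 1.62, so normal replicate 1 was the highest by its highest peak. The whole region held 21594, 29261, 41369 and 40533 IP reads over 8468, 10942, 7773 and 8790 input reads. From these summed reads the edgeR log2 change of the IP was 0.01 ± 0.12 (SE, adjusted p = 0.997). The edgeR change of the ratio was 0.15 ± 0.17 (adjusted p = 0.999). Ccnd2, the gene of cyclin D2, followed with a mean of 12595 reads per kb and a log2 fold of 1.31 ± 0.16 (SD, n = 4 lists). Fam198b had 10530 reads per kb, the cadherin gene Fat1 had 10335, Tsc22d2 had 8417 and Pcdhgc3 had 8023. The mean log2 folds of these 4 were 1.3, 1.72, 1.89 and 1.45. The densest regions thus had folds on both sides of the median of all first-exon regions.

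**Figure D3:**
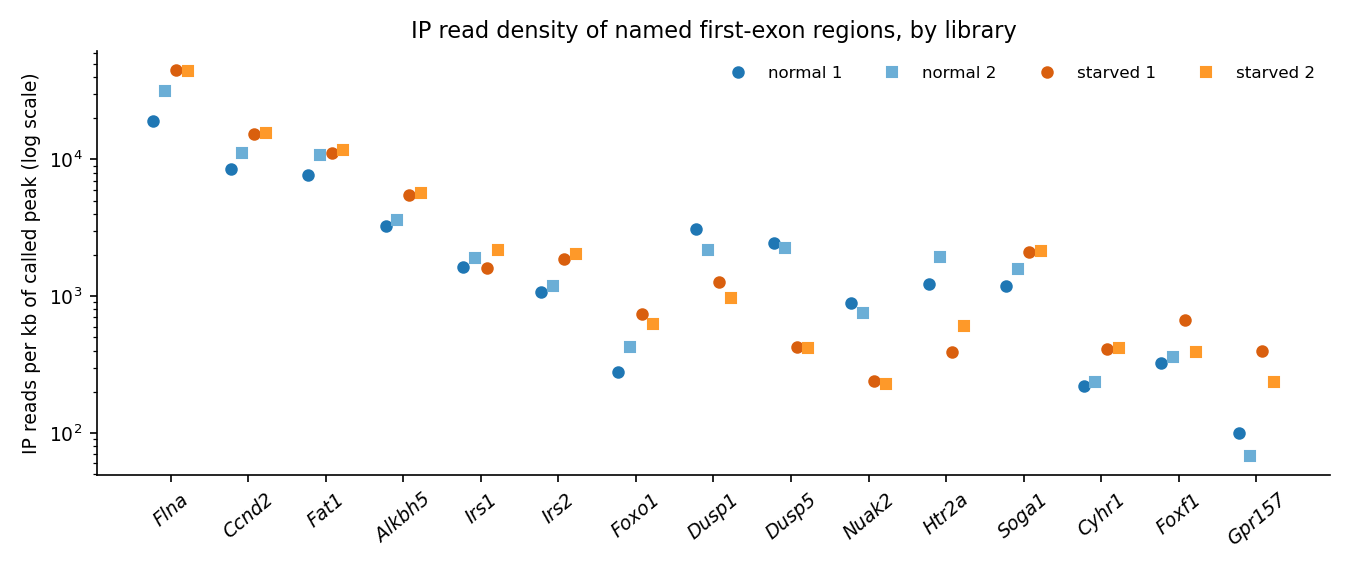
IP reads per kb of called peak in 15 first-exon regions, on a log axis, with 1 point per library (circles for replicate 1, squares for replicate 2). Flna lies between 18942 and 44966 reads per kb while Gpr157 reaches down to 67.9, and Dusp1, Dusp5, Nuak2 and Htr2a are lower in both starved libraries.

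The longest merged region lay in Fat4, a giant cadherin whose first exon encodes most of its extracellular repeats. It spanned 6750 bp at chr3:38885571-38892320, with log2 folds of 1.92, 2.15, 1.92 and 2.28. Pcdh7 followed with 5590 bp and folds of 2.07, 2.00, 2.06 and 2.18. Mn1, a transcriptional coregulator gene, had 5510 bp and folds of 1.99, 2.75, 1.83 and 2.67. In Mn1 both replicate 2 libraries were higher than both replicate 1 libraries, irrespective of condition.

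Protocadherin genes held 51 first-exon regions in 29 genes, and 24 of these regions were called in all 4 lists. The clustered protocadherins carry a large variable first exon that is spliced to shared constant exons, and 1 such exon encodes the whole extracellular part of each cell surface protein. The mean log2 fold of the 24 regions had a median of 2.00, and ranged from 1.22 in Pcdh18 to 3.64 in Pcdhac2. The high folds rested on few reads. The Pcdhac2 region with a fold of 3.64 held 41, 136, 156 and 180 IP reads over 1, 8, 7 and 12 input reads, and the fold in normal replicate 1 was computed against 3 reads. Pcdhgc3 held 17677, 18492, 33600 and 26767 IP reads. Some members of the clusters are similar in sequence, so the alignment could have divided reads among them, which was not measured. Values of single clustered members are uncertain in that respect. None of the 24 changed 1.8-fold in its IP/input fold in both replicates, though Pcdhac2 was lower by that measure with summed reads (-1.19 and -1.70 on the log2 scale).

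Insulin and FOXO signalling genes had first-exon regions in Irs1, Irs2, Foxo1 and Gab2. Irs1 and Irs2 encode the adaptor proteins that insulin and IGF-1 receptors phosphorylate, and each has nearly its whole coding sequence in exon 1. The Irs1 region spanned 5180 bp at chr1:82286571-82291750. It held 8295, 9671, 8016 and 11183 IP reads in normal replicates 1 and 2 and starved replicates 1 and 2, over 2224, 2305, 1057 and 1590 input reads. Its log2 folds were 1.59, 2.07, 1.70 and 2.23. The fold was higher in starved than in normal MEFs by 0.11 and 0.16 in replicates 1 and 2, which is less than the gap between replicates. IP reads differed by -0.60 ± 0.22 and input reads by -0.77 ± 0.28 between conditions (edgeR log2 change ± SE, adjusted p = 0.60 and 0.61).

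Irs2 held 5059, 5908, 8856 and 10859 IP reads over 928, 1266, 1041 and 1403 input reads. Its folds of 2.14, 2.87, 1.87 and 2.37 were lower in starved MEFs by 0.27 and 0.51. Foxo1 encodes a transcription factor that insulin signalling keeps out of the nucleus and that drives genes of starvation, autophagy among them. It held 360, 523, 1007 and 802 IP reads over 104, 113, 178 and 134 input reads. Its folds were 1.48, 2.21, 1.28 and 2.00, so the starved value was lower by 0.20 in replicate 1 and by 0.21 in replicate 2, while replicates of a condition differed by over 0.7. The edgeR log2 change of the IP/input ratio was -0.26 ± 0.27 in Foxo1, -0.09 ± 0.18 in Irs2 and 0.11 ± 0.19 in Irs1 (SE, adjusted p = 0.999 in each). Gab2 was called in normal replicate 2 alone, with 43 IP and 12 input reads and a log2 fold of 1.84.

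The list of autophagy machinery held the ULK and ATG genes, the Beclin 1 complex, the WIPI and LC3 families, cargo receptors such as Sqstm1, and Tfeb and related regulators. Of these genes Atg2a, whose protein transfers lipids to growing autophagosomes, was the one with a first-exon region. It was called in 3 lists, with 84, 91 and 101 IP reads in normal replicates 1 and 2 and starved replicate 2 over 27, 38 and 31 input reads, and log2 folds of 1.33, 1.26 and 1.12. It was not in the list of starved replicate 1. No other gene of that list had a peak with this label, which says nothing of peaks elsewhere in those genes.

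The m6A machinery had 2 such regions, in Alkbh5, an eraser of m6A, and in Rbm15, which helps to guide the methyltransferase to its sites. Alkbh5 held 6170, 6736, 10791 and 11390 IP reads, with log2 folds of 1.98, 2.18, 1.54 and 2.47 (mean 2.04 ± 0.39, SD, n = 4 lists). Rbm15 held 4582, 5890, 7200 and 7406 IP reads, with folds of 1.97, 2.41, 2.04 and 2.20 (mean 2.15 ± 0.19). Both lay above the median first-exon region. Their IP/input ratios differed between conditions by -0.10 ± 0.21 and 0.09 ± 0.17 (edgeR log2 change ± SE, adjusted p = 0.999 in both), and the folds of the groups overlapped in both genes.

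The IP/input fold of first-exon regions was then compared between starved and normal MEFs. Among the 350 regions, the fold was higher under starvation in 119 in replicate 1 and in 228 in replicate 2, in 77 in both and in 80 in neither. The median change was -0.16 in replicate 1 and 0.13 in replicate 2 on the log2 scale. A 1.8-fold change in the same direction in both replicates was found in 3 regions, 1 higher and 2 lower, where 0.367% of all 6531 regions called in all 4 lists were higher and 0.352% lower.

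The region with the higher fold was in Arsj, a sulfatase gene. Its log2 folds were 1.8 and 1.40 in normal and 2.95 and 2.26 in starved MEFs, with 360, 403, 361 and 525 IP reads over 94, 153, 36 and 73 input reads. Input reads were thus the ones that differed most. The lower regions were in Pelo, a ribosome rescue factor gene, and Ubn2. The folds of Pelo were 2.27, 2.32, 1.21 and 1.23, but with reads summed over the called peaks the change was 0.09 and -0.11. Ubn2, a histone chaperone subunit gene, had folds of 2.56, 3.37, 1.48 and 1.33, and its normal values rest on 2 and 3 input reads, the first of them counted as 3. The first-exon label stood in 2 lists for Arsj and in 1 list each for Pelo and Ubn2.

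Other regions with large changes in both replicates fell short of 1.8-fold in at least 1. Rps6kc1 was higher by 0.77 and 1.36, the homeobox gene Hoxd8 by 0.70 and 0.90, and the tyrosine kinase gene Abl2 by 0.75 and 0.68 in replicates 1 and 2 on the log2 scale. These are changes of the highest peak, and with summed reads the edgeR change of the ratio was -0.18 ± 0.34 in Hoxd8, in the other direction. Changes of the highest peak were -1.65 and -0.80 in Irf2bp2, -1.06 and -0.64 in Heca, and -0.71 and -0.69 in Hip1, a clathrin adaptor gene. With summed reads the edgeR changes of the ratio were -0.27 ± 0.20, -0.53 ± 0.44 and -0.84 ± 0.54 in the same order. The adjusted p of edgeR was 0.999 in each. The first-exon label stood in 2 lists for Rps6kc1, Abl2, Irf2bp2 and Hip1, and in 3 for Hoxd8 and Heca.

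No first-exon region passed the edgeR test of the IP/input ratio, with an adjusted p of 0.999 at the lowest. Over all regions 0.0153% passed as higher and 0% as lower, in edgeR and in DESeq2 alike. Before adjustment, 5 first-exon regions were higher at p under 0.05 and 7 were lower, or 1.43% and 2.00% of the 350, where 1.26% and 1.55% of all regions were. The 5 were Rps6kc1, Kdm3b, Arsj, Nynrin and Mex3b, and the 7 were Ubn2, Pcdhac2, Nbea, Cdyl2, Cyhr1, 2700081O15Rik and Clk3. DESeq2 gave 1 higher and 1 lower before adjustment.

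Summed reads of the IP and of the input moved together. The log2 changes of IP and input reads under starvation had the same sign in 291 of 350 first-exon regions (83.1%) and in 82.8% of all regions called in all 4 lists. Across the 350 regions Pearson's r was 0.88, a description over regions that share the same libraries. The SD of the change was 0.64 for the IP, 0.81 for the input and 0.42 for the ratio. Both kinds of reads were summed over the same called peaks, whose length differed between lists, so a longer call adds to both. Each region also had to pass the enrichment threshold in every list, which links its IP to its input. The shared sign, r and SDs therefore cannot tell how far the RNA itself moved together. Their size with called length taken into account was not tested.

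**Figure D4:**
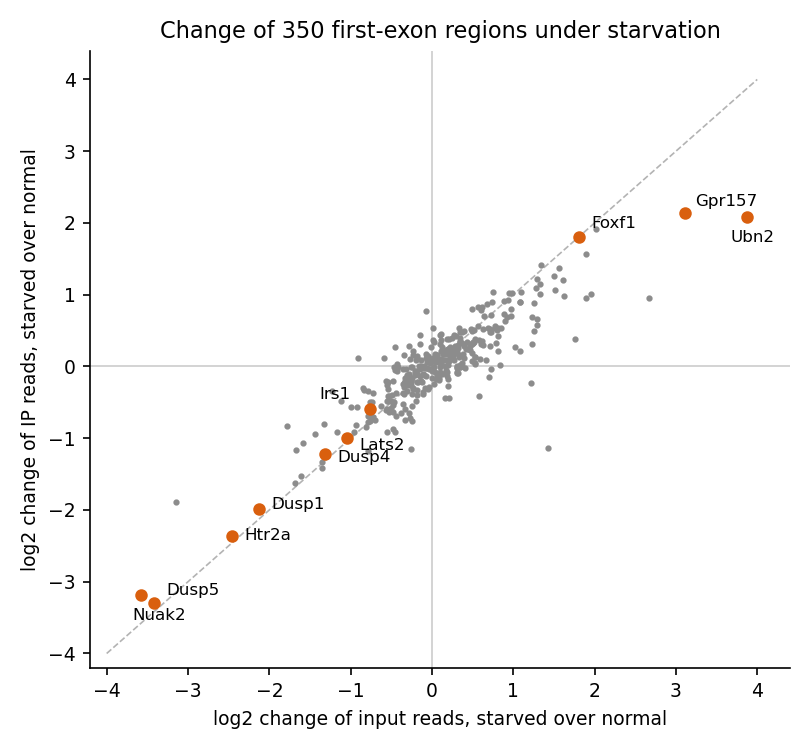
Log2 change of IP reads against log2 change of input reads under starvation for the 350 first-exon regions called in all 4 lists, from the edgeR fits, with named regions in orange and the line of equal change dashed. Dusp5, Nuak2, Htr2a and Dusp1 lie near the line at the lower left, while Ubn2 and Gpr157 lie below it at the upper right.

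None of the 350 first-exon regions passed the edgeR test of IP reads or of input reads, and neither did any of the 6531 regions (0% in each direction). Before adjustment, 18 first-exon regions were higher in the IP and 22 lower at p under 0.05, or 5.14% and 6.29%, where 4.36% and 4.04% of all regions were. For the input the counts were 15 and 18, or 4.29% and 5.14%, where 4.13% and 3.58% of all regions were. DESeq2 called 9 of the 350 in the IP, 5 higher and 4 lower, where it called 0.949% and 1.32% of all regions. In the input it called 3 higher and 7 lower, where it called 0.903% and 1.16% of all.

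The regions with the lowest p for IP reads were lower under starvation. In bulk samples, fewer cells of a type and less RNA per cell cannot be told apart. Dusp5, a phosphatase of ERK in the nucleus, held 1894, 1903, 296 and 335 IP reads in normal replicates 1 and 2 and starved replicates 1 and 2, over 673, 917, 50 and 95 input reads. The starved libraries were far below the normal ones in IP and input alike. Its log2 change was -3.30 ± 0.27 in the IP and -3.42 ± 0.32 in the input (edgeR, SE, adjusted p = 0.14 and 0.10), and 0.12 ± 0.23 in the ratio. The DESeq2 adjusted p of Dusp5 was 6.4e-17 in the IP and 2.5e-15 in the input. Nuak2, a kinase related to AMPK, held 592, 517, 94 and 107 IP reads over 148, 199, 10 and 18 input reads. It differed by -3.18 ± 0.33 in the IP, with an edgeR adjusted p of 0.21. Htr2a, a serotonin receptor gene, held 2338, 3392, 684 and 1095 IP reads and differed by -2.36 ± 0.32, with an edgeR adjusted p of 0.22. DESeq2 called Nuak2 and Htr2a lower in both, with an adjusted p of 1.3e-10 and 1.4e-06 in the IP and of 1.4e-07 and 4.6e-05 in the input. The first-exon label stood in 3 lists for Dusp5 and Nuak2 and in 1 for Htr2a.

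The list of immediate-early and ERK feedback genes had 5 first-exon regions, in Dusp1, Dusp4, Dusp5, Dusp7 and Egr1, of which the first 3 were called in all 4 lists. All 3 were lower in IP and input before adjustment, where 4.04% and 3.58% of all regions were. None passed the edgeR tests of summed reads after adjustment. DESeq2 called Dusp5 and Dusp1 lower in the IP and all 3 lower in the input, where it called 1.32% and 1.16% of all regions. Dusp1, a phosphatase that acts on MAP kinases, held 9650, 6755, 3947 and 2939 IP reads over 2155, 2657, 480 and 579 input reads. The groups did not overlap. Dusp4 held 3790, 3934, 1852 and 3553 IP reads over 983, 1657, 362 and 645 input reads. Egr1, a zinc finger factor switched on within minutes by growth factors, was called in both normal lists, with 7504 and 20145 IP reads, and in starved replicate 2, with 320. It was outside the list of starved replicate 1 and carried the first-exon label in 1 list. The median change of the ratio in the 3 was 0.12, beside -0.03 over all first-exon regions, while that of the input was -2.12 beside 0.06.

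Reads were summed over the peaks called in each list, and the called length differed between lists. With the covered length as an offset, a choice made after seeing the data, edgeR called 6 first-exon regions lower in the IP and none higher, where it called 0.965% and 0.138% of all regions. The 6 were Dusp5 (-3.12), Nuak2 (-2.47), Htr2a (-2.26), Dusp1 (-1.91), Pcdh18 (-1.40) and Gcnt2 (-1.38), as log2 changes of IP reads with adjusted p from 0.0024 to 0.046. In the input it called 7 lower, namely the first 5 with Dusp4 and Sema7a, and none higher, where it called 0.934% and 0.276% of all. Dusp5, Nuak2, Htr2a, Dusp1 and Pcdh18 fell in IP and input alike in this fit.

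The regions with the lowest p in the other direction were not called in that fit. The forkhead gene Foxf1 held 65, 86, 497 and 352 IP reads over 200, 240, 740 and 900 bp of called peak, or 325, 358, 672 and 391 reads per kb. Its IP change was 1.81 ± 0.31 with summed reads and -0.01 ± 0.31 with the offset (edgeR, SE, adjusted p = 0.30 and 0.999). Gpr157 held 28, 36, 264 and 192 IP reads over 280, 530, 660 and 810 bp, and its change was 2.14 with summed reads and 1.31 with the offset (edgeR adjusted p = 0.26 and 0.27). Ubn2 differed by 2.08 and 1.04 in the same way (adjusted p = 0.30 and 0.24). The first-exon label stood in 4 lists for Foxf1, 2 for Gpr157 and 1 for Ubn2. DESeq2 on summed reads called all 3 higher in the IP, with an adjusted p of 0.0059 for Foxf1, 0.0050 for Gpr157 and 0.018 for Ubn2, and Ubn2 in the input too, at 0.020. Klf9 and Zfp703, transcription factor genes with called lengths that differed little, had log2 changes of 0.97 and 0.91 with the offset (adjusted p = 0.12 and 0.13).

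Zinc finger and BTB factors had 25 first-exon regions, 13 of them called in all 4 lists, with a median of mean log2 folds of 1.71. Homeobox, SOX, forkhead, T-box and KLF factors had 23, with 11 in all 4 lists and a median of 1.62. None of these regions changed 1.8-fold in both replicates, and 3 of each list were higher in the IP before adjustment while none were lower, where 4.36% and 4.04% of all regions were. With the covered length as offset the IP changes of these 6 were -0.01 in Foxf1, 0.71 in Hoxb3, 0.97 in Klf9, 0.66 in Zbtb10, 0.91 in Zfp703 and 0.17 in Zscan29, and none was called. Zfp703 was one of them, with 11339, 11247, 39002 and 30426 IP reads over 3342, 3906, 6284 and 6460 input reads. The IP groups of Zfp703 did not overlap, and its ratio differed by 0.01 ± 0.16. Hoxb3 held 146, 105, 717 and 518 IP reads, over 440, 390, 860 and 720 bp of called peak.

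Chromatin regulators had 15 regions with 8 in all 4 lists, Arid1a, Arid1b, Arid2, Kdm3b, Kdm5c and Setd7 among them, and a median fold of 1.85. Ubiquitin ligases had 24 with 9 in all 4 lists, Cbl among them, and a median of 1.79. Secreted ligands of the TGF-beta, BMP, Wnt, FGF and VEGF families had 8, with Gdf6 and Vegfc in all 4 lists. Kinases of the MAPK, DYRK, MARK and stress families had 9, with Lats2 and Nuak2 in all 4 lists. Lats2, a kinase of the Hippo pathway, held 2042, 3169, 2055 and 2104 IP reads over 617, 1020, 312 and 431 input reads. Lats2 and Nuak2 were both lower in IP and input before adjustment, where 4.04% and 3.58% of all regions were. In none of these 4 lists did a region pass the edgeR tests of summed reads after adjustment or change 1.8-fold in both replicates, while Nuak2 was called with the offset and by DESeq2, as were Lats2 and Arid1b by DESeq2 in the input alone.

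The regions called in both starved lists alone with the most IP reads were those of Rasa1 (963 and 1556), Iqgap1 (961 and 1048) and Trim16 (670 and 927 IP reads in replicates 1 and 2). Rasa1 is a GTPase activator of RAS and Iqgap1 a scaffold of the cytoskeleton and of MAPK signalling. Their log2 folds were 1.01 and 1.16, 1.06 and 1.65, and 1.04 and 1.34, where the threshold is 1 on that scale. Those called in both normal lists alone were Adcy3 (666 and 605), the homeobox gene En1 (196 and 689) and Lrrc47 (57 and 327), with log2 folds of 1.01 and 1.45, 1.06 and 1.14, and 1.44 and 1.1. A region outside a list may lie just under the threshold there, and the lists do not give its value.

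As a check of the cell type, peaks lay on 2 to 5 of 12 fibroblast and mesenchymal marker genes per list, Pdgfra and Pdgfrb in each, and on none of 6 epithelial or 5 neuronal markers. Csf1r, of 6 leukocyte markers, and Kdr, of 5 endothelial markers, had a peak in each list, and Cd14 in starved replicate 1. A gene without a peak is not shown to be unexpressed.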

How the data were processed

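RIP-seq of YTHDF3 was done in 4 IP libraries, each with an input. Per the methods of the study and the labels, the authors trimmed reads, aligned them to mm10 with TopHat2 2.0.13, used diffReps to call peaks over input and HOMER to place them in genes. For normal replicate 2 the deposited values are plain read counts. In the other lists the authors gave a signal, reads multiplied by 1 factor per library. A log2 IP/input ratio and p-values of diffReps stand beside them in the deposited lists.

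Reads were recovered by dividing by the factor (100% of values whole within 0.1 reads). Reads in called peaks numbered 8828814, 14409462, 15731226 and 19284322 in the IP and 2637966, 5162203, 2510124 and 4478658 in the input, for normal 1 and 2 and starved 1 and 2. Peaks with a fold of at least 2 and p under 0.0001 were kept, folds used at least 3 input reads, and peaks overlapping by 1 bp were merged. Each region took the highest fold among its peaks in a list. The tests used edgeR 4.0.16 (R 4.3.3) on regions present in every list (quasi-likelihood, TMM, Benjamini-Hochberg over 6531 regions at 0.05): the ratio with a term per library pair, and IP and input reads by condition. DESeq2 1.42.0 was an alternative. SEs are the log2 change over the root of the F statistic. Scripts were tested on simulated data. Python 3.11.15, pandas 2.3.3, numpy 2.4.6, pysam 0.24.0 and matplotlib 3.10.9 were used.

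Named regions are, by rule, the 8 highest mean folds and 6 highest IP reads per kb among regions with at least 20 IP and more than 3 input reads in every list, the 4 largest changes of fold in each direction with that filter, the 3 lowest p for IP reads in each direction, genes of the insulin, autophagy and m6A lists, the 3 with most IP reads called in 1 condition alone, and the 3 longest. Arid1a, Arid1b, Arid2, Kdm3b, Kdm5c, Setd7, Cbl, Gdf6, Vegfc, Klf9, Zfp703, Zbtb10, Zscan29, Hoxb3, Lats2, Dusp1, Dusp4, Dusp7, Egr1, Pcdh18, Gcnt2, Sema7a and the regions listed before adjustment were named outside it after their values were seen. The members and lists were chosen with earlier results of these data known. The GC and exon length strata and the covered length offset were added after seeing the data. Other alternatives covered thresholds, overlap, scaling, read filters, a replicate block and leaving out each library. Some genes are not reported here.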

Additional observations from a re-analysis of the deposited data

How the results depend on the processing

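The difference of the median log2 fold between first and internal exons kept its sign under every alternative but 1: it was -0.0396 in windows of 70% GC or more. Without 1 list it was 0.13 to 0.18. The count of 3 regions changed 1.8-fold in both replicates was 12 at a cutoff of 1.5, and 0 with a reciprocal overlap of 50%, 1 with folds weighted by length and 0 with peaks of fold 4 or more. With a single replicate it was 63 to 69. Reads summed over the region also gave 3, but these were Pcdhac2, Gpr157 and Ubn2, all lower, so Arsj and Pelo rest on the choice of the highest peak. Without a replicate block, asking every starved fold to pass every normal fold by the cutoff, it was 2. The tests of IP and of input reads gave 0, but 9 and 10 with DESeq2, and 6 and 7 with the covered length as offset. Leaving out 1 library gave 0 to 0 in both, and 0 to 1 for the ratio, where Chsy1 was called lower without normal replicate 1 (log2 change -1.46 ± 0.29, edgeR adjusted p = 0.00097). Such fits assume that a lone sample varies like the others. The share of windows with GGAC was 48.5% in 100 bp, 20.6% for GGACT and 75.04% at a fold of 4 or more. The share of first-exon peaks differed by -0.67 to -0.14 percentage points without 1 list. In 51 of the alternatives results kept their direction and side of the threshold, or moved less than the limit for a count.

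Samples of both conditions share a replicate number and the labels do not say what it marks. Replicate differences of the fold correlated between conditions at r = 0.18 over the 350 regions and 0.27 over all 6531. With a replicate block, the edgeR tests gave 0 first-exon regions for the ratio, the IP and the input, with 12 and 19, 38 and 37, and 29 and 32 higher and lower at an unadjusted p under 0.05, where 168 and 218, 595 and 554, and 477 and 448 of all 6531 regions were.

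The cause of these moves was not tested. Depth of the libraries is unknown, folds over fewer than 3 input reads were computed against 3, and 2 replicates per condition leave permutation tests above 0.05. Counting was not stated to use strand, so reads of overlapping or antisense genes cannot be told apart.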
